A study of Arabidopsis thaliana with 35 samples.

Results

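The comparison described here sets er XVE:ER seedlings after 8 h on estradiol against uninduced seedlings of the same line, over all genes. Its samples are 8 of the 35 RNA-seq libraries of the series, 4 at 8 h and 4 uninduced, which were chosen by their labels and by no measured value. In er XVE:ER an er mutant carries an estradiol-inducible transgene of ERECTA (ER), so that both groups share the er mutation and the transgene. XVE is a synthetic transcription factor that activates the transgene in the presence of estradiol, and per the study's methods it was driven by the 35S promoter, which is active in most cells of the plant, so that induction was not restricted to vascular tissue. Seedlings were 7 days old and grew in cycles of 16 h light and 8 h dark. The 8 h group was moved to plates with 5 mM 17-β estradiol and the uninduced group to mock plates (0 h in the labels). Whole seedlings were collected, 5 to 6 per library. The er allele and the number of independent transgenic lines are not given in the sources used here, and an er mutant without the transgene was not analysed here.

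Further libraries stand beside this comparison. WT seedlings without the transgene were treated in the same manner and are used at 8 h on estradiol and uninduced, with 4 libraries each. The same er XVE:ER line at 3 h on estradiol has 3 libraries. The sources differ on the uninduced seedlings, which spent 3 h on mock plates per the study's methods and are marked 0 h in the labels, and the 8 h point is known from the labels alone. The times of day of the harvests are not given in the sources used here and may differ between the groups. In er XVE:ER the effects of ER induction, of estradiol, of the time since transfer and of any difference in the time of day therefore cannot be told apart, and WT values are given beside the pathway lists and the largest changes.

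ER is a leucine-rich repeat receptor kinase of the plasma membrane. With its paralogs ERL1 and ERL2 it perceives secreted EPF and EPFL peptides, acts with SERK co-receptors and signals through the kinase YDA and a MAP kinase cascade, with known roles in stomatal spacing, stem elongation and vascular development. In the vascular cambium the receptor kinase PXY perceives the peptide TDIF, which is encoded by CLE41 and CLE44, and promotes cell division and vascular organisation. A large share of the Arabidopsis transcriptome also follows the circadian clock, in which the morning transcription factors CCA1 and LHY, the pseudo-response regulators (PRRs) and the evening complex repress one another in sequence over the day.

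Expression was measured as the count of reads per gene. Total counts were 22137954, 20771010, 22828745 and 20458103 in the 8 h libraries (replicates 1 to 4), against 18996145, 19047837, 20937132 and 18845436 in the uninduced libraries. Values are given as CPM, which are counts scaled to a common library size with TMM factors. The libraries of a group were not equally alike. Uninduced replicate 4 was nearest to WT 3 h replicate 4 (Pearson correlation of log2 CPM 0.9368) and correlated with the other uninduced er XVE:ER libraries at 0.9012 to 0.9161, whereas those 3 correlated with one another at up to 0.9932. The 8 h replicate 1 was nearest to WT 8 h replicate 3 (0.9767) and correlated with its own group at 0.9396 to 0.9566. The 8 h replicate 4 likewise correlated with its group at 0.9396 to 0.9626, whereas 8 h replicates 2 and 3 correlated with each other at 0.9899. The 8 h libraries of WT were uneven too in some genes, with 57.0, 13.0, 15.6 and 60.7 CPM of the antenna gene LHCB2.3 in replicates 1 to 4. Comparisons with WT carry this spread. The counts of called genes are also given without uninduced replicate 4, an alternative chosen for the lists after the data had been seen.

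ER was strongly induced at 8 h. ER (AT2G26330, chromosome 2, 11208080 to 11214662 in TAIR10.1) had 1542, 922, 1120 and 724 CPM in the 8 h libraries, against 47.9, 44.5, 46.9 and 67.8 CPM in the uninduced libraries. The groups did not overlap, and the lowest 8 h library lay more than 10 times above the highest uninduced library. On the log2 scale the change was 4.37 (SE 0.28, adjusted p 1.14e-05 by edgeR's quasi-likelihood test with Benjamini-Hochberg adjustment), and an exact two-sided permutation test of mean log2 CPM gave p = 0.0286, the smallest that 4 against 4 libraries allow. At 3 h the line had 357, 267 and 457 CPM, so that ER rose further between 3 h and 8 h (log2 fold change 1.59, SE 0.28, adjusted p 0.00567 by edgeR). Uninduced er XVE:ER already held ER reads, which come from the er locus, the transgene or both, because the counts do not separate them.

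In WT, ER had 72.7, 95.7, 93.5 and 87.9 CPM at 8 h, against 67.8, 84.4, 68.6 and 82.0 CPM uninduced. These groups overlapped, the WT change of 0.21 on the log2 scale was not called (adjusted p 0.2, edgeR), and the exact permutation p was 0.143. The response of er XVE:ER exceeded that of WT by 4.16 (SE 0.29, adjusted p 3.61e-06, edgeR). The 8 h level of er XVE:ER averaged 1077 ± 350 CPM (SD, n = 4).

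**Figure D1:**
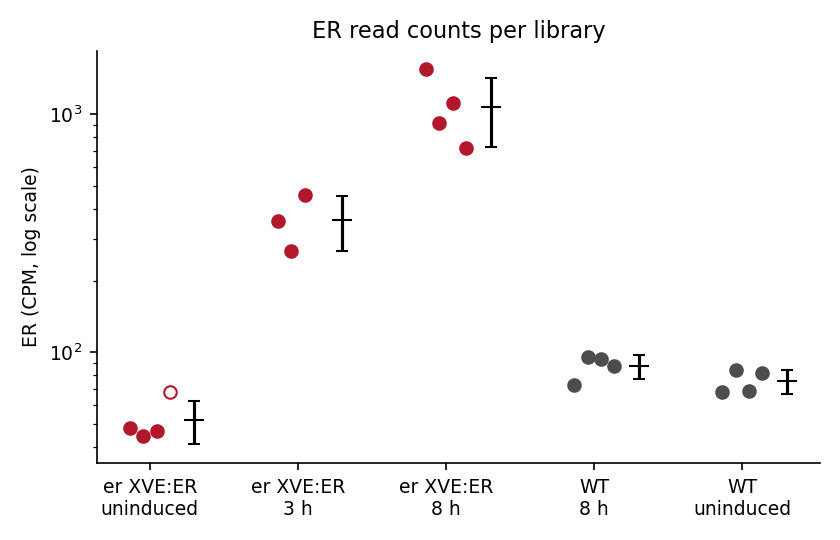
ER in CPM (log axis) in each er XVE:ER library uninduced, at 3 h and at 8 h, and in each WT library at 8 h and uninduced. Points are libraries, the open circle is er XVE:ER uninduced replicate 4, and bars show the mean with SD. All 4 induced libraries at 8 h, at 724 to 1542 CPM, lie above every other library shown.

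Over all genes, 3203 of the 19824 genes tested (16.2%) were called changed between 8 h and uninduced er XVE:ER at an adjusted p under 0.05 by edgeR. Of these, 1740 were higher at 8 h (8.78% of genes tested) and 1463 lower (7.38%), and 868 were higher and 713 lower by at least 2-fold. In 2884 of them (14.5% of genes tested) every 8 h library lay on one side of every uninduced library. The median log2 fold change of all genes tested was -0.01. The shares of 8.78% higher and 7.38% lower are the background for the list counts below. Without uninduced replicate 4 4952 of 20046 genes (24.7%) were called, 3111 of the 3203 genes among them (97.1%), whereas leaving out any other library gave 1892 to 2776 calls.

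Most of this response was shared with WT, which has no ER transgene and no library in common with it. WT had 6675 of 19835 genes called between 8 h and uninduced (33.7%). In er XVE:ER 16.2% were called, and 24.7% without uninduced replicate 4. A larger list count in WT, or without that library, thus does not by itself show a larger response of the list. Of the 3183 er XVE:ER calls that were also tested in WT, 2629 were called there with the same sign (82.6% of the er XVE:ER calls and 39.7% of the WT calls), and 3161 (99.3%) moved in the same direction in WT with or without a call there, whereas 79.6% of all genes tested in both lines did so. Across 19639 genes, which are not independent replicates, the log2 fold changes of the lines were correlated at 0.875 (Pearson) and 0.79 (Spearman). A test of the difference between the 8 h responses of er XVE:ER and WT called 2 of 20302 genes (0.00985%), ER and LTP3. DESeq2 called 9. By edgeR 919 genes (4.53%) had an unadjusted p under 0.05, a share no larger than the 0.05 that would pass if no gene differed. The share was 5.08% by DESeq2, and 7.92% by edgeR without uninduced replicate 4, where again 2 genes were called. For the 553 er XVE:ER calls that were not called in WT, a difference between the lines is thus not shown apart from ER. In a simulation with the dispersion of these libraries the difference test recovered 94% of 4-fold and 40% of 2-fold changes. Its changed genes were drawn from those above a minimum mean CPM, and no simulated library stood apart from its group. Differences of moderate size between the lines could thus be missed, and larger ones in genes of few reads or uneven libraries. RD29B, described below, differed by -2.81 (SE 0.81) and was not called (adjusted p 0.971, edgeR).

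**Figure D2:**
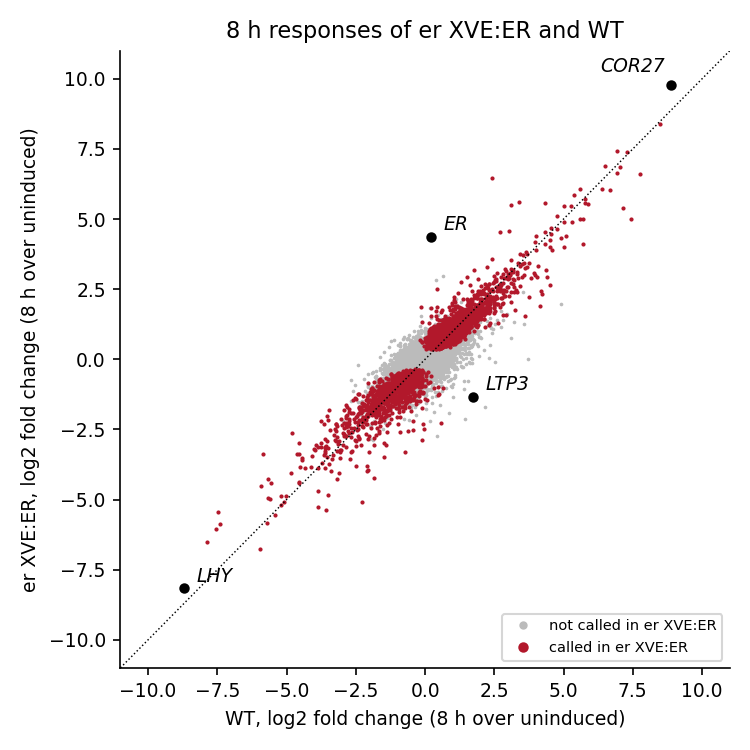
Log2 fold change at 8 h over uninduced of each gene tested in both lines, er XVE:ER on the vertical axis and WT on the horizontal axis, with genes called in er XVE:ER in red and the dotted line marking equal changes. ER (4.37 in er XVE:ER, 0.21 in WT) and LTP3 (-1.33 in er XVE:ER, 1.73 in WT) lie off the line on which COR27 and LHY fall.

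LTP3 was the other gene whose response differed between the lines. LTP3 (AT5G59320, chromosome 5, 23928954 to 23929816) encodes a small lipid transfer protein and is known to respond to abscisic acid. It had 4.80, 4.2, 4.32 and 5.49 CPM at 8 h in er XVE:ER, against 15.0, 15.7, 8.43 and 8.04 CPM uninduced. In WT it had 22.1, 11.2, 10.5 and 20.3 CPM at 8 h, against 5.62, 5.79, 5.08 and 2.87 CPM uninduced. The groups did not overlap in either line, and they were ordered oppositely. The log2 fold changes were -1.33 in er XVE:ER (adjusted p 0.00608) and 1.73 in WT (adjusted p 0.00236), with a difference of -3.06 (SE 0.42, adjusted p 0.0184, edgeR). That call held in 13 of 23 alternatives, in which the adjusted p reached 0.155 and the difference stayed between -3.22 and -2.87. In er XVE:ER at 3 h LTP3 stood at 18.3, 9.90 and 10 CPM, above every 8 h library of that line.

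The neighbouring gene LTP4, named here after its values were seen, is a close paralog of LTP3, so that reads can be assigned to the wrong one of them. It had 0.0, 0.0477, 0.0 and 0.0528 CPM at 8 h in er XVE:ER, against 1.07, 0.787, 0.194 and 0.0547 CPM uninduced, with at most 20 counts in a library. In WT it had 8.19, 1.07, 1.06 and 1.54 CPM at 8 h, against 0.0579, 0.0, 0.0535 and 0.149 CPM uninduced. LTP4 was too low to be tested in er XVE:ER alone, and the difference between the lines was not called (adjusted p 0.16, edgeR), whereas DESeq2 called it.

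The circadian clock genes were among the largest changes. Of 9 tested genes of the morning clock, 7 fell and 1 rose (median log2 fold change -3.37, against -0.01 for all genes). Of 8 genes of the evening clock, 6 rose and none fell (median 2.52). Of 5 PRR genes, 3 rose and 1 fell (median 2.59). The same directions were called in WT for every one of these 18 genes, and no clock gene differed between the lines by the test of the difference. Without uninduced replicate 4 the counts were 2 higher and 7 lower for the morning genes and unchanged for the other lists.

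LHY, a MYB-related repressor of evening genes, showed the largest fall of all genes named here. LHY had 0.698, 0.286, 0.839 and 0.528 CPM at 8 h, against 221, 232, 214 and 22.3 CPM uninduced. The log2 fold change of LHY was -8.17, with an SE of 0.79 and an adjusted p of 0.000161 by edgeR, and the WT value was -8.71. The low uninduced value belongs to replicate 4, which lay above the highest 8 h value of 0.839 CPM, so that the groups were separate, and below the 29.0 to 37.2 CPM of the er XVE:ER libraries at 3 h. CCA1, its close relative, had 0.393, 4.43, 3.99 and 0.950 CPM at 8 h, against 297, 277, 269 and 59.5 CPM uninduced (log2 fold change -6.52, adjusted p 0.000587). RVE8, an activator of evening genes, fell by 4.93 on the log2 scale and its co-activator LNK2 by 4.50. LNK2 was the exception to the pattern of replicate 4, with 653 CPM in that library and 589 to 608 CPM in the other uninduced libraries.

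Among the PRR genes, which repress CCA1 and LHY in turn through the day, the order of expression was split. PRR9, which is expressed earliest in the day, fell to 0.638 ± 0.51 CPM at 8 h, against 13.7 ± 3.37 CPM uninduced (SD, n = 4 each; log2 fold change -4.40, adjusted p 0.000248). PRR7 averaged 119 CPM at 8 h and 98.0 CPM uninduced and was not called (log2 fold change 0.28, adjusted p 0.772). PRR5 had 45.7, 113, 111 and 94.6 CPM at 8 h, against 1.34, 1.68, 0.969 and 4.32 CPM uninduced (log2 fold change 5.46). PRR3 had 72.2, 59.9, 59.0 and 49.3 CPM at 8 h, against 0.535, 1.42, 1.31 and 1.81 CPM uninduced (log2 fold change 5.56). TOC1, the PRR that peaks in the evening, rose by 2.59 on the log2 scale. The 3 members that rose are those known to peak later in the day than PRR9 and PRR7.

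The evening genes rose together. ELF4, a subunit of the evening complex, had 113, 117, 100 and 160 CPM at 8 h, against 1.98, 2.73, 2.18 and 2.41 CPM uninduced (log2 fold change 5.71, SE 0.21, adjusted p 3.95e-07, edgeR). Its partners LUX and ELF3 rose by 3.11 and 1.89 on the log2 scale, and GI, a scaffold protein of photoperiod timing, by 2.13. FKF1, the blue-light receptor that works with GI, had 50.6, 80.1, 74.4 and 77.3 CPM at 8 h, against 0.481, 0.367, 0.145 and 0.657 CPM uninduced (log2 fold change 7.41). The paralogs of FKF1 did not pass the test, with ZTL at -0.18 (adjusted p 0.37) and LKP2 at -0.17 (adjusted p 0.486). FKF1 is the member of this family whose transcript is known to cycle strongly.

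**Figure D3:**
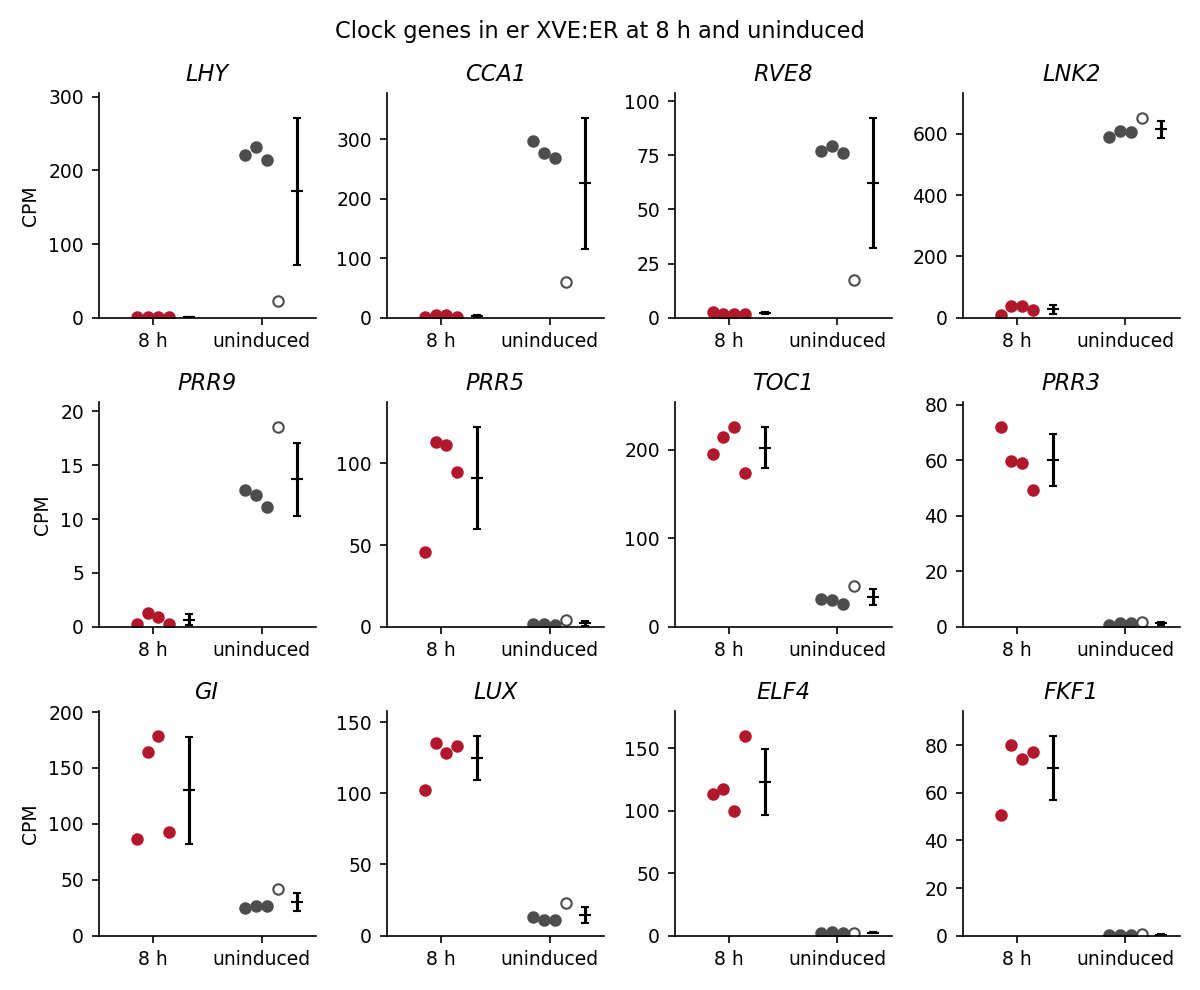
CPM (linear axes from 0) of 12 clock genes in the er XVE:ER libraries at 8 h (red) and uninduced (grey). Points are libraries, the open circle is uninduced replicate 4, and bars show the mean with SD. LHY, CCA1, RVE8, LNK2 and PRR9 are lower at 8 h and the other genes higher, with LHY at 22.3 CPM and CCA1 at 59.5 CPM in uninduced replicate 4.

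Photoperiod output followed the same order. Of 6 tested genes 5 fell and none rose, in er XVE:ER as in WT and also without uninduced replicate 4, with a median of -1.95. COL2, a CONSTANS-like B-box protein, had 3.54, 3.86, 4.49 and 2.74 CPM at 8 h, against 80.1, 74.0, 72.8 and 16.4 CPM uninduced (log2 fold change -4.05). CDF2, a DOF repressor of CONSTANS, had 4.71, 6.39, 6.34 and 6.70 CPM at 8 h, against 42.4, 36.9, 35.3 and 20.2 CPM uninduced (log2 fold change -2.49). CDF1 and CDF3 fell by 1.78 and 2.11 on the log2 scale. FT, the flowering signal, averaged 1.06 CPM at 8 h and 0.532 CPM uninduced and was not called (adjusted p 0.346).

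Outside the clock lists the largest rises were COR27, COR15B, JMJD5 and RbcX1, and the largest falls were SAG29, BBX16, GBSS1 and ASG4. COR27 (AT5G42900), a cold- and light-regulated protein that represses evening genes, had 58.7, 78.8, 66.0 and 95.3 CPM at 8 h, against 0.0, 0.0, 0.291 and 0.0 CPM uninduced. The uninduced libraries held 0 to 6 reads each, so that its fitted log2 fold change of 9.79 depends on the small count added before the logarithm. It ranged from 9.41 to 13.57 when 1 library was left out, with the highest value without uninduced replicate 3, the library that held those reads. COR27 was still at 0.138 to 0.263 CPM in the 3 h libraries, and its change between 3 h and 8 h was 8.49 (adjusted p 8.42e-07, edgeR). JMJD5, a jumonji-domain histone demethylase linked to the clock, had 219, 84.5, 78.5 and 88.6 CPM at 8 h, against 1.39, 1.47, 1.21 and 2.85 CPM uninduced. RbcX1, an assembly chaperone of Rubisco, had 42.2, 71.3, 63.4 and 72.7 CPM at 8 h, against 0.695, 0.892, 0.872 and 1.86 CPM uninduced. All 3 genes also rose in WT, COR27 by 8.87, JMJD5 by 6.39 and RbcX1 by 5.39 on the log2 scale.

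SAG29, a SWEET family sugar transporter, had 0.175, 0.191, 0.168 and 0.211 CPM at 8 h, against 25.2, 29.7, 26.6 and 1.75 CPM uninduced (log2 fold change -6.77). BBX16, a B-box protein, had 0.436, 2.81, 2.35 and 1.48 CPM at 8 h, against 126, 116, 123 and 47.8 CPM uninduced (log2 fold change -5.87). GBSS1, the granule-bound starch synthase that makes amylose, had 6.72, 6.44, 6.17 and 3.32 CPM at 8 h, against 426, 411, 370 and 83.8 CPM uninduced (log2 fold change -5.83). ASG4, a MYB-related protein of the family of CCA1 and LHY, had 0.393, 0.286, 0.378 and 0.0528 CPM at 8 h, against 0.657 to 25.9 CPM uninduced (median 14.1) (log2 fold change -5.56). In all 4 genes uninduced replicate 4 was the lowest uninduced library. Groups that do not overlap were a condition for choosing these genes. They fell in WT as well, SAG29 by 5.95, BBX16 by 7.39, GBSS1 by 5.69 and ASG4 by 5.42 on the log2 scale.

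Promoters of the changed genes differed in the short clock-related motifs they held. The evening element AAAATATCT, to which CCA1 and its relatives are known to bind, lay between 250 bases before and 50 bases after the start in 10.7% of 1723 promoters of genes called higher and in 1.53% of 1442 promoters of genes called lower, against 3.02% of all 19473 promoters of genes tested. Among genes that changed by at least 2-fold the shares were 14.3% for higher and 2.00% for lower genes. The G-box CACGTG, a site of helix-loop-helix factors such as the PIFs and of basic leucine zipper factors, was distributed the other way, in 9.46% of the promoters of higher genes and 18.0% of those of lower genes, against 8.85% of all. The CCA1-binding site AAAAATCT was in 10% for higher and 6.93% for lower genes, against 8.04%, and the telo-box AAACCCTA in 4.41% and 3.05%, against 5.40%. Both strands were searched, the CCA1-binding site differs from the evening element in its letters, and a match describes the letters and not a bound site.

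Of the 8 genes that rose among the largest changes and the named clock genes, 5 hold the evening element in this window, FKF1, JMJD5, RbcX1 and PRR5 among them, and of the 6 that fell none does, whereas the G-box is in none of the 8 and in 3 of the 6 (LHY, CCA1 and ASG4). COR27 is the other risen gene with the element, with 2 matches upstream, and is not printed. The 250 bases upstream of the start are printed for 3 of the risen genes that carry the element upstream (FKF1, RbcX1 and PRR5). They are also printed for LHY and CCA1 as genes that fell. They come from the TAIR10.1 assembly at RefSeq, 5′ to 3′ on the strand of the gene. Capitals mark the evening element in the genes that rose, written AGATATTTT where it lies on the opposite strand, and the G-box in the genes that fell.
FKF1, chr1:25508389-25508638, plus strand: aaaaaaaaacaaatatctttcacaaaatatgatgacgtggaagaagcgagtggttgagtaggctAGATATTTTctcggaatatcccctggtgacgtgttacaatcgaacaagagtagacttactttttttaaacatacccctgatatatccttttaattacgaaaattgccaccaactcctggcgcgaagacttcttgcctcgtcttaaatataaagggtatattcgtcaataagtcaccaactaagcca
RbcX1, chr4:2118618-2118867, minus strand: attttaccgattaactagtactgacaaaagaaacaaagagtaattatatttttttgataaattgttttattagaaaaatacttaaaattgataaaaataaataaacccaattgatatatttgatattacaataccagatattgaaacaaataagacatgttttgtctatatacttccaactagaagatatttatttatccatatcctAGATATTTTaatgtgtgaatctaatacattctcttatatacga
PRR5, chr5:8358547-8358796, minus strand: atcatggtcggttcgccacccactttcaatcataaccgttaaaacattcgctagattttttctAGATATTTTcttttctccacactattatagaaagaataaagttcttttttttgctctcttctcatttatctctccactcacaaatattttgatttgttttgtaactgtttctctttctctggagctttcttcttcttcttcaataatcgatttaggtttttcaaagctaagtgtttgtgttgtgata
LHY, chr1:37872-38121, minus strand: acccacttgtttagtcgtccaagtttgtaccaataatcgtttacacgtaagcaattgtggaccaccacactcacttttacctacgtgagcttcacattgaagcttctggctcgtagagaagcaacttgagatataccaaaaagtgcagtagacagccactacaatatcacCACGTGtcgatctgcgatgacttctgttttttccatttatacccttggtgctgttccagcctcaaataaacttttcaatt
CCA1, chr2:19245341-19245590, plus strand: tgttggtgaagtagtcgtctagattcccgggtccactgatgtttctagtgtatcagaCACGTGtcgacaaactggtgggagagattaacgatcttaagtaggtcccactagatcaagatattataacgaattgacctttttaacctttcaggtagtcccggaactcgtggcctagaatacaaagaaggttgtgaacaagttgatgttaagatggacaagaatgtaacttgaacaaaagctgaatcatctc
FKF1 has a further match that starts at the first base of the transcript. Among the other clock genes TOC1, LUX and BOA, all called higher, hold 1 match each, and so does PRR9, which fell. GI, ELF3, ELF4, PRR3 and RVE2, also called higher, hold none. RVE7, which was not called, holds 1 match as well.

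Genes of starch breakdown rose as a group, with 10 of 13 higher and 1 lower (median 2.43), and again 10 and 1 without uninduced replicate 4. WT had 12 higher and 1 lower. PHS2, the cytosolic glucan phosphorylase, had 778, 663, 661 and 495 CPM at 8 h, against 13.9, 17.8, 15.4 and 33.4 CPM uninduced (log2 fold change 5.01, SE 0.32, adjusted p 1.23e-05, edgeR). SEX1, the glucan, water dikinase that phosphorylates starch, had 824, 987, 1076 and 617 CPM at 8 h, against 76.5, 77.1, 70.8 and 99.0 CPM uninduced (log2 fold change 3.43). PWD, the second dikinase, rose by 3.10 and the phosphatase SEX4 by 3.00 on the log2 scale. BAM1, a beta-amylase known for its role in guard cells and under stress, fell by 1.90, while BAM3, the main leaf beta-amylase, was not called (log2 fold change 0.24, adjusted p 0.362). PHS2 and SEX1 were also higher at 8 h than at 3 h, by 2.4 and 1.82 on the log2 scale.

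Light-harvesting antenna genes were lower in 5 of 17 cases and higher in none, with a median of -0.56, whereas in WT 12 of 17 were lower (median -1.27). None of the 17 differed between the lines by the test of the difference. LHCB2.3 had 17.8, 159, 168 and 148 CPM at 8 h, against 912, 971, 1022 and 973 CPM uninduced (log2 fold change -2.98, adjusted p 0.00525). LHCB2.2 had 99.7, 938, 986 and 1000 CPM at 8 h, against 3512, 3490, 3707 and 4000 CPM uninduced (log2 fold change -2.29, adjusted p 0.0201). The 8 h replicate 1 was far below the other 8 h libraries in both genes, and LHCB genes are similar enough in sequence for reads to be assigned to the wrong member. Without that library 7 of the 17 were called lower, and without uninduced replicate 4 again 5. Of 11 genes of PIF signalling and shade, 3 were lower and none higher (4 lower without uninduced replicate 4), and 5 of 12 were lower in WT. PIF5, a bHLH factor of dark growth, had 32.9, 103, 102 and 79.9 CPM at 8 h, against 226, 225, 256 and 242 CPM uninduced, and the wall enzyme gene XTR7 fell by 1.39 on the log2 scale.

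Of the organ markers, 2 of 8 green shoot and 2 of 12 root markers were called lower and none higher. These shares lie above the 7.38% of all genes that were lower, though they rest on small lists. The lower counts were 2 and 4 without uninduced replicate 4, and in WT 2 and 6 were lower, with 1 root marker higher. The summed level of 8 green shoot markers was 30891 to 51224 CPM at 8 h, against 50622 to 53105 CPM uninduced, with RCA (Rubisco activase) and GAPA called lower. The summed level of 12 root markers was 2480 to 3796 CPM at 8 h, against 1909 to 2412 CPM uninduced, almost all of it from PYK10, a root beta-glucosidase that was not called (adjusted p 0.0507), while COBL9 and CASP2 were called lower and 9 of the 12 had a log2 fold change below 0 (median -0.52). Guard cell markers summed to 34.7 to 46.5 CPM at 8 h, against 30.3 to 39.6 CPM uninduced, with none of 5 called (1 higher without uninduced replicate 4, and 2 higher and 2 lower in WT). The 7 seed markers were under 1 CPM in every library. The part of organ shares in the gene lists was not tested, and in whole seedlings fewer cells of a type and less RNA per cell cannot be told apart.

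Apart from the induced gene, 1 member of the ERECTA pathway list was called. Of 19 receptors, ligands and partners, ER rose and SERK4 fell, and 17 were not called (median -0.09). There were 2 higher and 1 lower without uninduced replicate 4, and WT had 1 higher and 3 lower. Over all genes 8.78% were higher and 7.38% lower, so that 1 call in each direction is near the share of all genes. Genes that were not called may still have changed, since the fit recovered 67% of simulated 2-fold changes. SERK4, a co-receptor kinase of the SERK family, had 19.2, 19.1, 18.3 and 12.3 CPM at 8 h, against 36.6, 40.7, 30.4 and 47.9 CPM uninduced (log2 fold change -1.18, SE 0.19, adjusted p 0.00252, edgeR). At 3 h it was already at 19.4 to 21.3 CPM, and the change between 3 h and 8 h was not called (adjusted p 0.317). In WT SERK4 changed by -0.22 (adjusted p 0.352), but the difference between the lines of -0.95 (SE 0.27) was not called (adjusted p 0.971). ERL1 changed by -0.22 (SE 0.17) and ERL2 by -0.40 (SE 0.23), and neither was called. The co-receptor genes SERK1, SERK2 and BAK1 changed by 0.02 to 0.10 with SEs of 0.13 to 0.14, and the cascade kinases YDA, MKK4, MKK5 and MPK6 by -0.33 to -0.07. MPK3 stood at 0.62 (adjusted p 0.0705), and without uninduced replicate 4 it was called (adjusted p 0.00453).

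The EPF and EPFL ligand genes were expressed at low levels and none was called. EPFL6 averaged 2.02 CPM at 8 h and 3.18 CPM uninduced, EPFL4 0.729 CPM and 0.628 CPM, and EPFL5 1.03 CPM and 1.11 CPM in the same order. EPF2, which limits entry to the stomatal lineage, averaged 11.2 CPM at 8 h and 6.73 CPM uninduced (log2 fold change 0.72, SE 0.34, adjusted p 0.178). Of 9 stomatal lineage factors, ICE1, the bHLH partner of the stomatal master regulators, was lower with 60.4, 67.4, 66.3 and 58.9 CPM at 8 h, against 84.6, 82.8, 89.6 and 81.0 CPM uninduced (log2 fold change -0.42, adjusted p 0.0284), and the other 8 were not called (2 of them were higher without uninduced replicate 4). A single lower call among 9 genes is near the 7.38% of all genes that were lower. In WT 1 of the 9 genes was lower and none higher. ICE1 fell in WT as well, by 0.68 on the log2 scale. The ICE1 call in er XVE:ER held in 3 of the 8 leave-one-out fits.

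Of the 8 TDIF-PXY targets, which act in cambial cell division, TMO6 was lower and none was higher (median 0.20). There were 1 higher and 1 lower without uninduced replicate 4 and 1 higher and 2 lower in WT. Over all genes 8.78% were higher and 7.38% lower, so that 1 call among 8 genes is near the share of all genes. TMO6, a DOF factor of provascular tissue, had 12.0, 16.1, 15.8 and 14.1 CPM at 8 h, against 21.2, 21.8, 21.8 and 17.7 CPM uninduced (log2 fold change -0.51, adjusted p 0.033), and in WT it fell by 0.83. The TMO6 call held in 2 of the 8 leave-one-out fits, each of which omits a single library. LBD4, a LOB-domain factor of the phloem side of the cambium, had 8.60, 8.06, 8.81 and 9.65 CPM at 8 h, against 6.31, 6.19, 6.98 and 3.45 CPM uninduced. Its groups did not overlap, yet the log2 fold change of 0.61 (SE 0.21) missed the threshold (adjusted p 0.0819). Without uninduced replicate 4 it was 0.43 and was called (adjusted p 0.0466), and DESeq2 also called it (adjusted p 0.0468). In WT LBD4 changed by 0.13 (adjusted p 0.478), and the difference between the lines of 0.48 (SE 0.25) was not called.

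WOX4, the homeobox factor that maintains cambial divisions, had 3.80, 3.24, 4.49 and 6.54 CPM at 8 h, against 2.89, 4.88, 3.49 and 3.67 CPM uninduced. These ranges overlapped, and the log2 fold change of 0.27 (SE 0.26, adjusted p 0.528) was not called. WOX4 had 6.12, 7.96 and 7.15 CPM in the er XVE:ER libraries at 3 h, and the change between 3 h and 8 h of -0.65 (SE 0.24) was not called either (adjusted p 0.0991). In WT WOX4 was called higher at 8 h (log2 fold change 0.57, adjusted p 0.0351), and the difference between the lines of -0.30 (SE 0.32) was not. ANT, AIL5, AIL6 and AIL7, AP2 factors of growing tissue, changed by 0.27, -0.19, -0.52 and 0.17 on the log2 scale, and WOX14 by 0.22, with none called. AIL6 was lower at 8 h than at 3 h by 1.00 (adjusted p 0.0174).

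The receptor gene PXY did not pass the test, while both TDIF genes rose. They were the only calls among 6 tested PXY receptor and ligand genes, against 2 higher and 1 lower without uninduced replicate 4 and 2 higher and 2 lower in WT. PXY had 32.1, 43.1, 52.3 and 25.1 CPM at 8 h, against 30.1, 37.7, 38.5 and 30.8 CPM uninduced (log2 fold change 0.15, SE 0.22, adjusted p 0.681). CLE44 had 5.50, 3.24, 3.78 and 4.69 CPM at 8 h, against 1.28, 2.36, 1.99 and 2.13 CPM uninduced (log2 fold change 1.14, SE 0.26, adjusted p 0.0158). CLE41 averaged 22.4 ± 4.89 CPM at 8 h, against 13.8 ± 2.29 CPM uninduced (SD, n = 4 each; log2 fold change 0.69, SE 0.19, adjusted p 0.0314). Both genes rose in WT too, by 0.67 and 0.57 on the log2 scale. The CLE44 call held in every fit that left out 1 library and the CLE41 call in 4 of 8.

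Of 19 xylem and secondary wall genes, CORD1 was called lower and none of the others was called, where 7.38% of all genes were lower. Among the 19, 16 had a log2 fold change below 0 (median -0.32). Without uninduced replicate 4, 2 were lower. In WT 4 were higher and 1 lower, and 14 of the 19 had a log2 fold change below 0 (median -0.16). None of the 19 differed between the lines by the test of the difference. CORD1, a regulator of cortical microtubules in developing xylem, had 1.75, 3.29, 2.90 and 1.79 CPM at 8 h, against 5.94, 5.88, 5.33 and 4.71 CPM uninduced (log2 fold change -1.17, SE 0.25, adjusted p 0.0109). It had 6.99 to 10.3 CPM at 3 h and was lower at 8 h than at 3 h by 1.78 (adjusted p 0.00195). In WT the change was -0.41 (adjusted p 0.285), and the difference between the lines of -0.76 (SE 0.38) was not called (adjusted p 0.971). None of 9 phloem genes was called, with or without uninduced replicate 4 (median -0.23), and 2 were lower in WT.

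**Figure D4:**
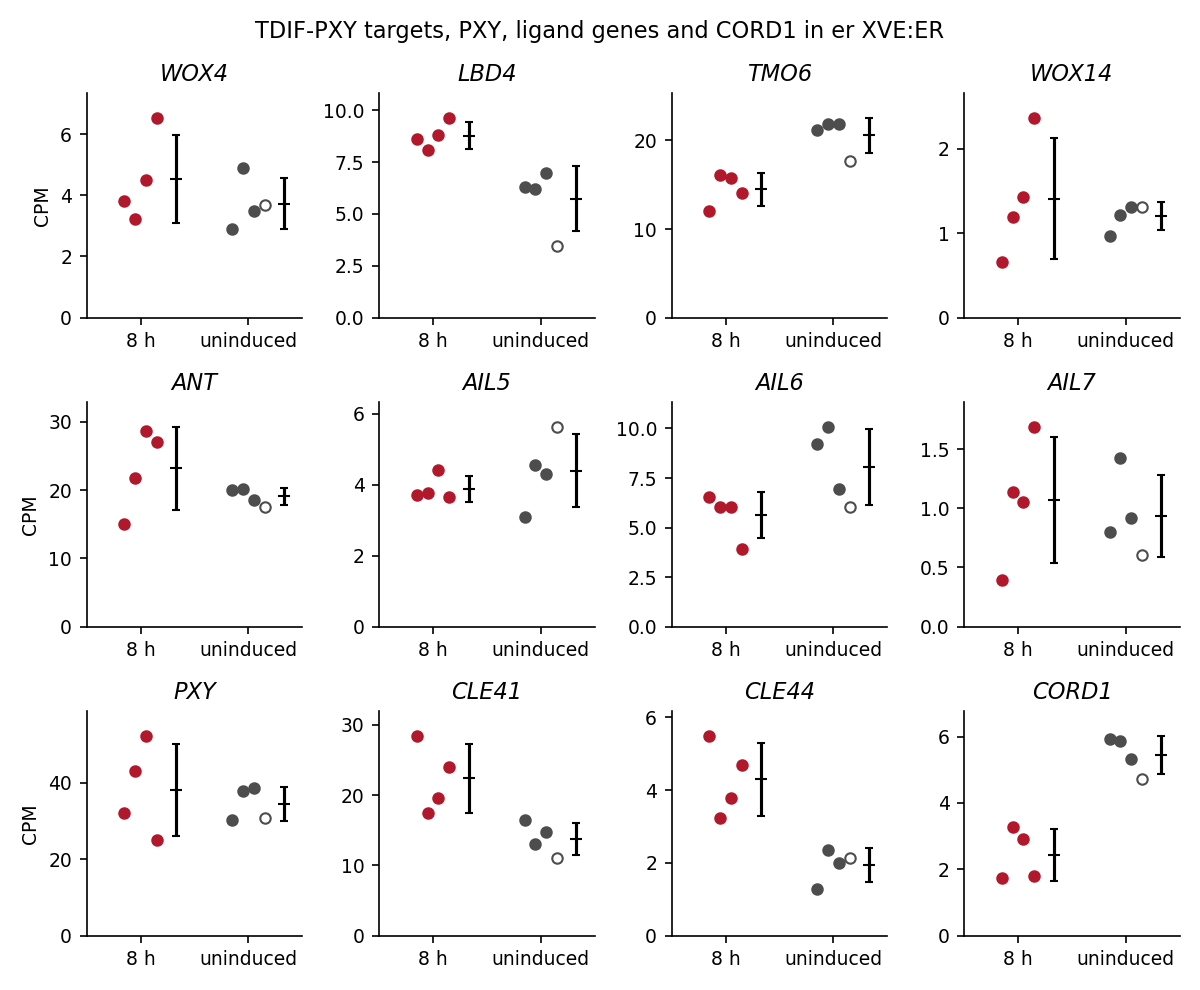
CPM (linear axes from 0) of the 8 TDIF-PXY targets, PXY, its ligand genes CLE41 and CLE44, and CORD1 in the er XVE:ER libraries at 8 h (red) and uninduced (grey). Points are libraries, the open circle is uninduced replicate 4, and bars show the mean with SD. The groups are separate for LBD4, TMO6, CLE41, CLE44 and CORD1 and overlap for the others.

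Of 19 nitrate genes 4 were higher and 1 lower (median 0.28), where 8.78% of all genes were higher and 7.38% lower. The counts were 5 and 1 without uninduced replicate 4 and 7 and 1 in WT. NRT2:1, the high-affinity nitrate transporter, had 10.8, 12.0, 9.90 and 8.39 CPM at 8 h, against 0.481, 0.157, 0.194 and 0.547 CPM uninduced (log2 fold change 4.88, SE 0.33, adjusted p 1.77e-05, edgeR), and its partner protein WR3 rose by 1.67. In WT NRT2:1 rose by 5.29. NRT2:1 had been higher still at 3 h, at 19.6 to 38.7 CPM, and fell by 1.55 on the log2 scale between 3 h and 8 h (adjusted p 0.00173). NIA2, the main nitrate reductase gene, was lower by 0.98. Of 11 phosphate starvation genes 4 were higher and none lower, led by MGD3, a galactolipid synthase, at 2.72 and SPX1, a phosphate sensor, at 1.87. Without 8 h replicate 1 that count was 2, and without uninduced replicate 4 it was 3. WT had 2 of 12 higher and 1 lower.

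Of 15 iron genes 2 were higher and 3 lower, where 8.78% of all genes were higher and 7.38% lower, while 10 had a log2 fold change above 0 (median 0.34). The counts were 2 and 4 without uninduced replicate 4, 5 and 2 without 8 h replicate 1, which turns the balance, and 3 and 4 in WT (median -0.18). IRT1, the root iron transporter, had 4.28, 10.6, 8.81 and 7.65 CPM at 8 h, against 82.9, 96.3, 79.6 and 0.766 CPM uninduced, so that uninduced replicate 4 lay below every 8 h library. The log2 fold change of -3.05 was called (adjusted p 0.0464), and without 8 h replicate 1 it was not (adjusted p 0.111). FRO2, the root iron reductase, showed the same pattern with 1.75 CPM in uninduced replicate 4 and 51.5 to 65.1 CPM in the other uninduced libraries. NAS4, a nicotianamine synthase, rose to 26.1, 17.5, 21.9 and 16.8 CPM at 8 h, against 6.15, 6.56, 4.36 and 4.71 CPM uninduced (log2 fold change 1.92), and OPT3, a phloem metal transporter, rose by 1.56. The iron store FER1 had 175, 113, 75.2 and 137 CPM at 8 h, against 554, 338, 520 and 1066 CPM uninduced (log2 fold change -2.31, adjusted p 0.00249), and FER2 was lower by 0.84. FER1 fell by 0.97 in WT. Of 4 ferritins these 2 were called, 2 were lower without uninduced replicate 4, and WT had 2 higher and 2 lower.

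Abscisic acid (ABA) response genes were lower in 6 of 10 cases and higher in none (median -1.43), and without uninduced replicate 4 in 10 of 11. In WT 7 of 12 were lower and 2 higher. RD29B, a dehydration-responsive gene, had 0.436, 0.143, 0.0839 and 0.0528 CPM at 8 h, against 10.8, 6.30, 2.18 and 6.35 CPM uninduced (log2 fold change -5.09). HAI1, a phosphatase that restrains ABA signalling, had 1.53, 1.57, 1.3 and 2.58 CPM at 8 h, against 53.6, 30.0, 15.1 and 4.32 CPM uninduced (log2 fold change -3.89). Of 14 jasmonate genes 3 were lower and none higher, where 7.38% of all genes were lower. Without uninduced replicate 4 the count was 8 lower and 1 higher. WT had 3 of 15 lower and 1 higher. Members that fell include LOX4, a lipoxygenase of jasmonate synthesis, at -2.04.

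Of 15 plasma membrane and vacuolar aquaporins 9 were lower and none higher (median -0.88), also without uninduced replicate 4, and 11 of 15 were lower in WT. PIP2A had 418, 389, 429 and 443 CPM at 8 h, against 1611, 1648, 1583 and 1113 CPM uninduced (log2 fold change -1.83, SE 0.17, adjusted p 0.000108, edgeR). PIP2;3 had 31.3, 20.8, 27.0 and 22.4 CPM at 8 h, against 199, 197, 178 and 141 CPM uninduced (log2 fold change -2.82), with reads shared in part with the near-identical PIP2B. These channels carry water across membranes. Of 13 expansin and wall-loosening genes 5 were higher and none lower (6 without uninduced replicate 4, and 6 of 14 higher and 1 lower in WT), with EXPA5 at 1.22, EXPA15 at 1.05 and the xyloglucan enzyme XTH9 at 1.37.

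Auxin response genes were lower in 6 of 16 cases and higher in none (median -0.65), and 7 were lower and 1 higher without uninduced replicate 4. In WT 8 of 14 were lower and 2 higher. GH3.3, which conjugates auxin to amino acids, had 4.15, 9.25, 9.48 and 8.97 CPM at 8 h, against 22.4, 27.4, 30.3 and 21.6 CPM uninduced (log2 fold change -1.68), and IAA14, an auxin co-receptor repressor, fell by 1.48. Of 12 cytokinin response genes, the type-A regulators ARR4 and ARR7 were higher (0.81 and 0.63) and ARR9 lower (-1.04), and the counts were again 2 and 1 without uninduced replicate 4. These counts are near the 8.78% higher and 7.38% lower of all genes, and WT had none higher and 2 lower (median -0.13, against 0.31 in er XVE:ER). Of 13 ethylene genes 5 were higher and 1 lower (7 and 1 without uninduced replicate 4, and 2 and 1 in WT), and ERF104, an ethylene response factor of defence, had 59.1, 148, 179 and 180 CPM at 8 h, against 14.1, 9.60, 17.9 and 38.9 CPM uninduced (log2 fold change 2.81), with its relative ERF5 at 2.32. Of 10 touch and early stress genes 4 were higher (5 higher and 1 lower without uninduced replicate 4), with the zinc finger gene STZ at 1.98 and CAF1a, an mRNA deadenylase, at 1.3. In WT none of these 10 genes was called, with a median of 1.11, above the median of 0.71 in er XVE:ER. WT 8 h replicate 2 was far below the others in both named genes. STZ had 126, 3.06, 41.5 and 114 CPM and CAF1a 43.3, 3.89, 32.8 and 36.8 CPM in WT at 8 h. Of 16 brassinosteroid and gibberellin genes 1 was higher and 4 lower, where 8.78% of all genes were higher and 7.38% lower. The counts were 2 and 5 of 17 without uninduced replicate 4, and 1 and 4 of 17 in WT. The lower genes include the gibberellin synthesis gene GA20OX2 at -1.26 and the DELLA repressor RGL3 at -1.18.

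Of 11 cold-regulated genes 4 were higher and none lower (median 1.41), against 5 and 1 of 12 without uninduced replicate 4 and 7 and 1 of 10 in WT. COR15B, a chloroplast-protecting protein, had 75.3, 67.9, 52.6 and 69.9 CPM at 8 h, against 1.60, 0.315, 0.436 and 0.383 CPM uninduced (log2 fold change 6.59). Its tandem paralog COR15A had 59.3, 27.2, 26.1 and 28.1 CPM at 8 h, against 8.18, 4.88, 4.46 and 0.821 CPM uninduced (log2 fold change 2.93). COR15A had reached 43.6 CPM on average at 3 h, whereas COR15B averaged 3.43 CPM at that time. Of 10 heat shock genes 2 were lower, HSP17.6II and HSP70 (median -1.18), where 7.38% of all genes were lower. Without uninduced replicate 4 there were 1 higher and 1 lower (median -0.14), and WT also had 1 higher and 1 lower (median 0.01). HSP70 was at 433 CPM in uninduced replicate 4 and at 141 to 155 CPM in uninduced replicates 1 to 3, and it was not called when replicate 4 was omitted (adjusted p 0.0753).

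Of 13 sugar starvation genes 4 were lower and none higher (3 lower without uninduced replicate 4). In WT none of the 13 was called (median -1.05, against -0.62 in er XVE:ER). ASN1, the dark-inducible asparagine synthetase, had 3.06, 85.1, 85.0 and 50.5 CPM at 8 h, against 489, 453, 523 and 675 CPM uninduced (log2 fold change -3.26, adjusted p 0.0142). Its 8 h replicate 1 was more than 10 times below the other 8 h libraries. WT 8 h libraries were split likewise, with 110, 1.95, 1.69 and 181 CPM, against 522 to 790 CPM uninduced. TPS11, a trehalose phosphate synthase-like protein, was at 30.5 CPM in 8 h replicate 1 and at 89.6 to 130 CPM in the others, against 212 to 281 CPM uninduced.

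The remaining lists held few calls. Of 16 cell division genes TSO2, a ribonucleotide reductase subunit of S phase, was higher (1.13) and CYCD3;2, a D-type cyclin of cambial divisions, lower (-0.57). In WT 9 were higher and 1 lower, where 33.7% of all genes were called. None of the 16 differed between the lines by the test of the difference. Of 9 ribosome biogenesis genes 2 were higher, NUC-L1 (0.70) and RPL3B (0.61). Of 11 flavonoid genes the regulator MYB12 was higher (1.77) and DFR lower (-1.82), and of 16 glucosinolate genes CYP83A1 was higher (0.60). At the background of 16.2% called, 1 to 2 calls among 9 to 16 genes are near the share of all genes. Without uninduced replicate 4 the counts of higher and lower genes were 4 and 2 for cell division, 2 and 1 for ribosome biogenesis, 1 and 2 for flavonoids and 3 and 4 for glucosinolates. WT had 4 higher and 1 lower for ribosome biogenesis, 3 and 1 for flavonoids and 6 and 1 of 15 for glucosinolates.

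**Figure D5:**
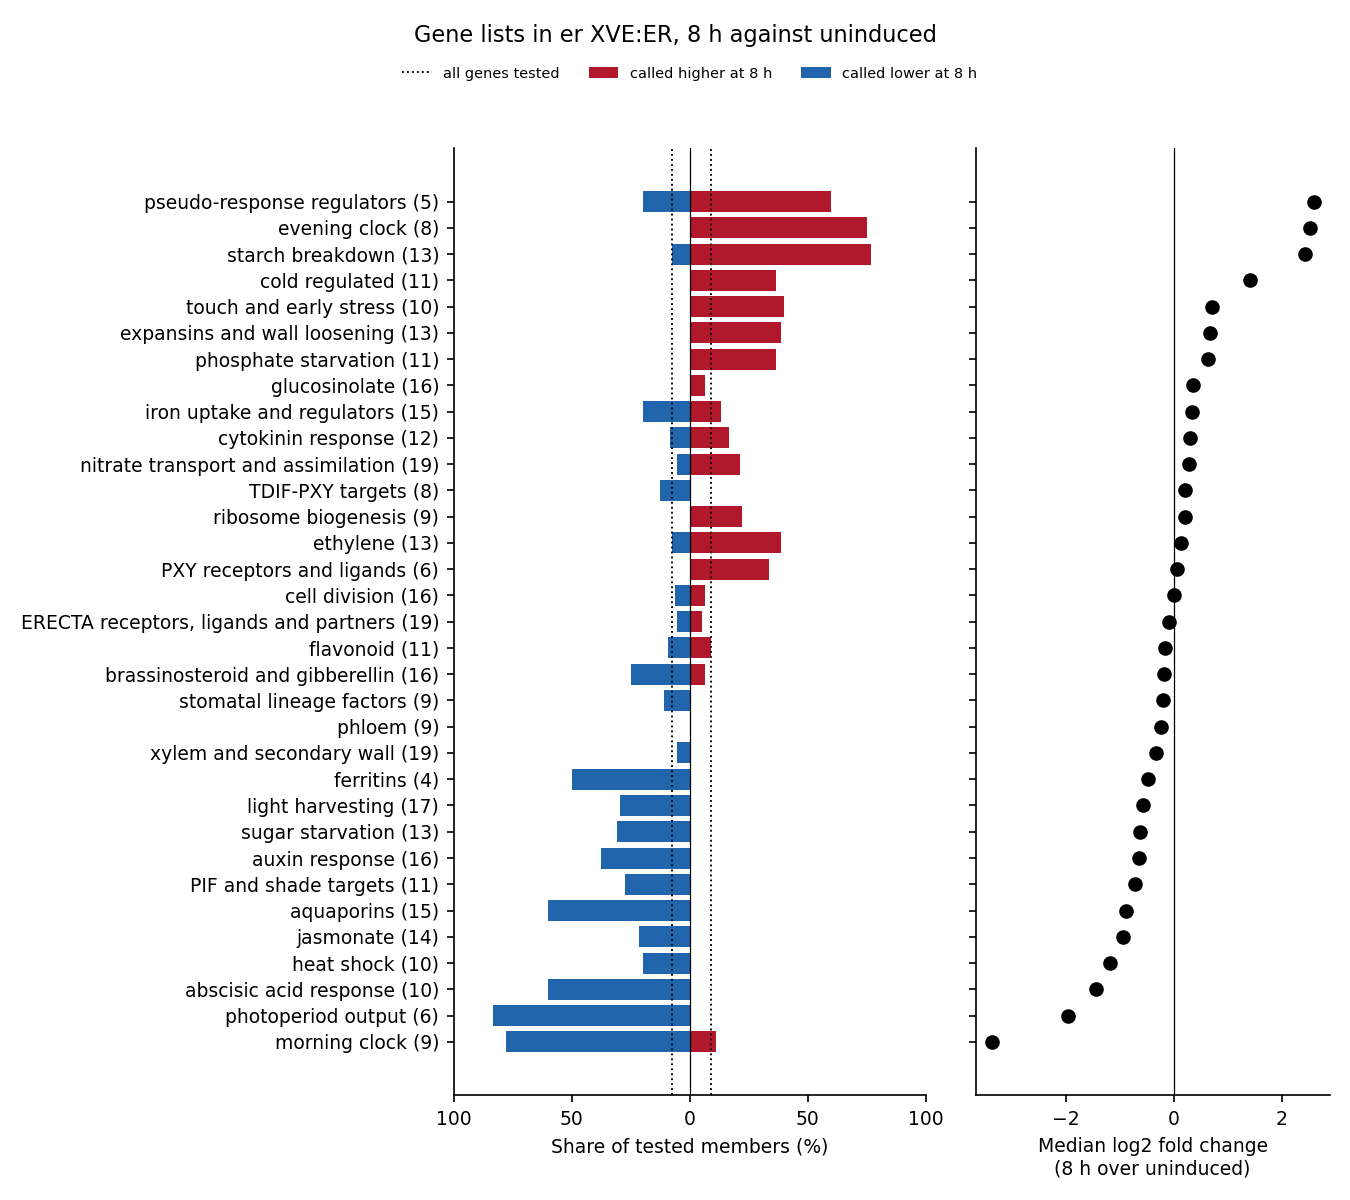
Left, the share of tested members of each of 33 pathway lists called higher (red) or lower (blue) at 8 h against uninduced in er XVE:ER, with the number tested in brackets and dotted lines at the shares of all genes tested (8.78% and 7.38%). Right, the median log2 fold change of each list, from -3.37 for the morning clock to 2.59 for the pseudo-response regulators.

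Between 3 h and 8 h on estradiol the er XVE:ER line had 3085 of 20051 genes called (15.4%), 1660 higher and 1425 lower at 8 h. This comparison shares the 8 h libraries with the one above, and the values are given side by side. WT at 8 h against 3 h was not analysed here, so whether WT shared these changes was not tested. In the morning clock 7 of 9 genes were lower and 1 higher at 8 h than at 3 h, and in the evening clock 5 of 8 were higher. Of the TDIF-PXY targets AIL6 and TMO6 were lower at 8 h than at 3 h and none was higher, and all 8 had a log2 fold change below 0 (median -0.36). Among 19 xylem and secondary wall genes 5 were lower at 8 h than at 3 h and none higher. All 19 had a log2 fold change below 0 (median -0.71). Of 16 glucosinolate genes 11 were lower at 8 h than at 3 h and 1 higher, while against uninduced seedlings 1 of the 16 was higher at 8 h. SPX1, FER1 and OPT3 showed no called change between 3 h and 8 h (adjusted p 0.11, 0.519 and 0.774).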

How the data were processed

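RNA from 7-day-old seedlings was sequenced by the authors as 150 base paired-end reads and mapped with STAR 2.7.11a to TAIR10 (EnsemblPlants release 58 annotation). The deposited files hold raw counts of reads per gene for 32833 genes. The strand setting, trimming and treatment of duplicates are not given in the sources used here, so overlapping genes (18 of the 72 named genes overlap another annotated gene) and near-identical paralogs are uncertain. Per the study's methods, replicates were biological repeats. Groups were taken from the sample labels. Coordinates come from TAIR10.1, which matched 32548 of the gene identifiers and 452 of 462 list symbols.

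Counts were analysed in R 4.3.3 with edgeR 4.0.16 (filterByExpr with a minimum count of 10 and a minimum total of 15, TMM, estimateDisp, glmQLFit, glmQLFTest), each comparison on the groups it needs, with Benjamini-Hochberg adjusted p-values (over every gene in the fit) called under 0.05. SE was computed as |log2 fold change| over the root of the F statistic. CPM were scaled by TMM across the 35 libraries, with a prior count of 2 for log2 CPM. The procedure was tested on simulated counts with 200 changed genes, drawn from those above a minimum mean CPM, and with no library set apart. The comparison of 8 h with uninduced er XVE:ER recovered 166 of them with 7 false calls (67% of 2-fold and 99% of 4-fold changes).

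Named genes were ER, PXY and the 8 TDIF-PXY targets, and genes whose response differed from WT. Added were the 6 largest rises and 6 largest falls among called genes with separate groups. These also needed a gene symbol and at least 5 CPM in the higher group. From each of 33 lists up to 2 genes were added, those with the largest called changes among members with separate groups. Further list members are named as examples and were chosen after their values were seen. The comparison, lists and rules were chosen with earlier results of these data known. Alternatives were the Wald test of DESeq2 1.42.0, size factors from DESeq2 in place of TMM, genes kept from 1 count upwards, robust dispersion, a fit of all 35 libraries, a replicate block, leave-one-out fits, and a fit without replicate 4 of every group.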

Additional observations from a re-analysis of the deposited data

Results flagged for a closer look

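The responses of er XVE:ER and WT to 8 h differed in ER (difference of 4.16 on the log2 scale) and LTP3 (-3.06), as described above.

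A library was set apart from the other 3 of its group in 28 of 144 groups of named genes and libraries, where chance gives about 1 in 20. Of these, 15 concern uninduced replicate 4 and 8 concern 8 h replicate 1. Uninduced replicate 4 stood lower than the others of its group in LHY (22.3 CPM), CCA1 (59.5 CPM), BBX16 (47.8 CPM), GBSS1 (83.8 CPM), SAG29 (1.75 CPM), COL2 (16.4 CPM), TMO6 (17.7 CPM), TSO2 (26.8 CPM) and PIP2A (1113 CPM). It stood higher in ER (67.8 CPM), JMJD5 (2.85 CPM), RbcX1 (1.86 CPM), XTR7 (31.6 CPM), WR3 (26.0 CPM) and EXPA5 (12.7 CPM). The 8 h replicate 1 stood lower in LHCB2.3 (17.8 CPM), LHCB2.2 (99.7 CPM), GH3.3 (4.15 CPM) and RGL3 (4.41 CPM), and higher in JMJD5 (219 CPM), COR15A (59.3 CPM), MYB12 (15.6 CPM) and EXPA5 (39.1 CPM). The other single libraries were 8 h replicate 4 in GBSS1 (3.32 CPM) and SERK4 (12.3 CPM), 8 h replicate 3 in AIL5 (4.41 CPM), uninduced replicate 1 in COR15B (1.60 CPM) and uninduced replicate 3 in COR27 (0.291 CPM).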

How the results depend on the processing

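ER kept its rise in all 15 alternatives (log2 fold change 4.15 to 4.68). The count of genes called at 8 h against uninduced in er XVE:ER was 6578 with all 35 libraries in 1 fit, 5667 without replicate 4 of every group and 1892 to 4952 when 1 library was left out (4952 without uninduced replicate 4). With DESeq2 it was 4303. Genes with a different response from WT numbered 9 with DESeq2, 4 with all 35 libraries, 1 without replicate 4 of every group and 1 to 3 when 1 library was left out. LTP3 was called in 8 of these 16 fits. WT calls numbered 4311 without replicate 4 of every group, and calls between 8 h and 3 h in er XVE:ER 1999, or 1190 to 3661 when 1 library was left out. The cause of these shifts was not tested.

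The replicate numbers do not pair the samples by the labels, and same-numbered er XVE:ER libraries deviated together in 3 of 4 numbers (correlations 0.227, -0.016, 0.105 and 0.305), with 8 h replicates 1 and 2 correlating best with another number. With a replicate block 3387 genes were called at 8 h against uninduced, and 1 in the difference from WT, since LTP3 was at an adjusted p of 0.0543. The block changed the call of no other named gene.

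Of 72 named genes 64 were called, and 52 of these in every fit that left out 1 library. Apart from ER, PXY, the TDIF-PXY targets and LTP3, the named genes were chosen among called genes. Their share of calls thus follows from that choice and is no measure of stability over all genes, of which 16.2% were called. Genes near 0 reversed: with 1 library left out AIL7 ranged from -0.12 (without 8 h replicate 4) to 0.45, WOX14 from -0.13 (without 8 h replicate 4) to 0.46 and PXY from -0.04 (without 8 h replicate 3) to 0.31, and without replicate 4 of every group AIL7 was -0.28 and WOX14 -0.09. Depth limits LTP4 and the EPFL genes, which held few reads.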
